A study of Mus musculus with 6 samples.

Results

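Matrix metalloproteases (MMPs), the related ADAM and ADAMTS proteases and their inhibitors, the TIMPs, were examined in the livers of mice given the surfactant copolymer poloxamer P-407, a treatment that raises blood lipids. Members were the genes annotated on either array with a symbol that begins with Mmp, Timp, Adam or Adamts followed by a digit. This gave 68 genes out of 17347 annotated genes, namely 21 Mmp, 4 Timp, 28 Adam and 15 Adamts genes. The oligonucleotide array carried 67 of them, all with values in all 3 pools, and the cDNA array carried 25, of which 12 had values in all 3 pools. Treated animals were 12 female C57BL/6 mice, 7 weeks old at the start and fed a low-fat chow with 4.4% fat, that were injected intraperitoneally every 3 days with P-407 at 0.5 g/kg. The 4 control mice, of the same strain, sex, starting age and chow, received saline on the same schedule, and livers of all mice were collected on day 96. Liver RNA was pooled, giving 3 treated pools and 1 control pool, so each ratio compares groups of pooled animals. Each of the 6 arrays carried 1 treated pool in Cy5 and the control pool in Cy3, and each treated pool was read once on each array type. The labels do not say which mice went into which pool.

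Values are log ratios of treated over control and were read as log2, so a value of 1 is a doubling in the treated livers. The labels do not state the log base. A natural log remains possible, and on that scale every fold change below would be larger. A gene was called higher or lower when the limma test of its mean ratio against 0 had a Benjamini-Hochberg adjusted p under 0.05 over all genes of that array type. With 1 control pool the tests do not include how control mice vary, and since no dyes were swapped, treatment and dye cannot be told apart. The files give ratios without intensities, so neither the level of a gene nor its signal over background is known. In whole liver RNA, a change in the number of cells of a type and a change in RNA per cell cannot be told apart.

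MMPs are secreted or membrane-bound zinc proteases that cut collagens, elastin, proteoglycans and other matrix proteins, and most are made as inactive precursors that another protease has to activate. TIMPs bind their active site. ADAMs are membrane proteins, some of which release the outer parts of cytokines, growth factors and receptors from the cell surface, while ADAMTS enzymes are secreted and act on proteoglycans and procollagens. In liver, these genes are known from Kupffer cells and recruited macrophages, from stellate cells and from the turnover of scar matrix.

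On the oligonucleotide arrays the largest increases were in Adam8 and Mmp12, both known from activated macrophages, and the remaining changes were small. Of the 67 members, 21 were higher and 10 lower, so 46.3% were called, beside 43.4% of all 16871 genes. The share called higher was 31.3% against 22.0% of all genes, and the share called lower was 14.9% against 21.4%. The median log2 ratio of the members was 0.05 against 0.00 for all genes, and the median absolute ratio was 0.17 against 0.13. Only Adam8 reached 2-fold. At a log2 ratio of at least 0.32 from 0, which is 1.25-fold, 7 members were higher (10.4%, against 7.74% of all genes) and 3 lower (4.48%, against 7.01%). At an unadjusted limma p under 0.05 there were 39 of the 67 members, beside 8868 of 16871 genes (52.6%). All 31 called members had 1 sign in the 3 pools.

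**Figure D1:**
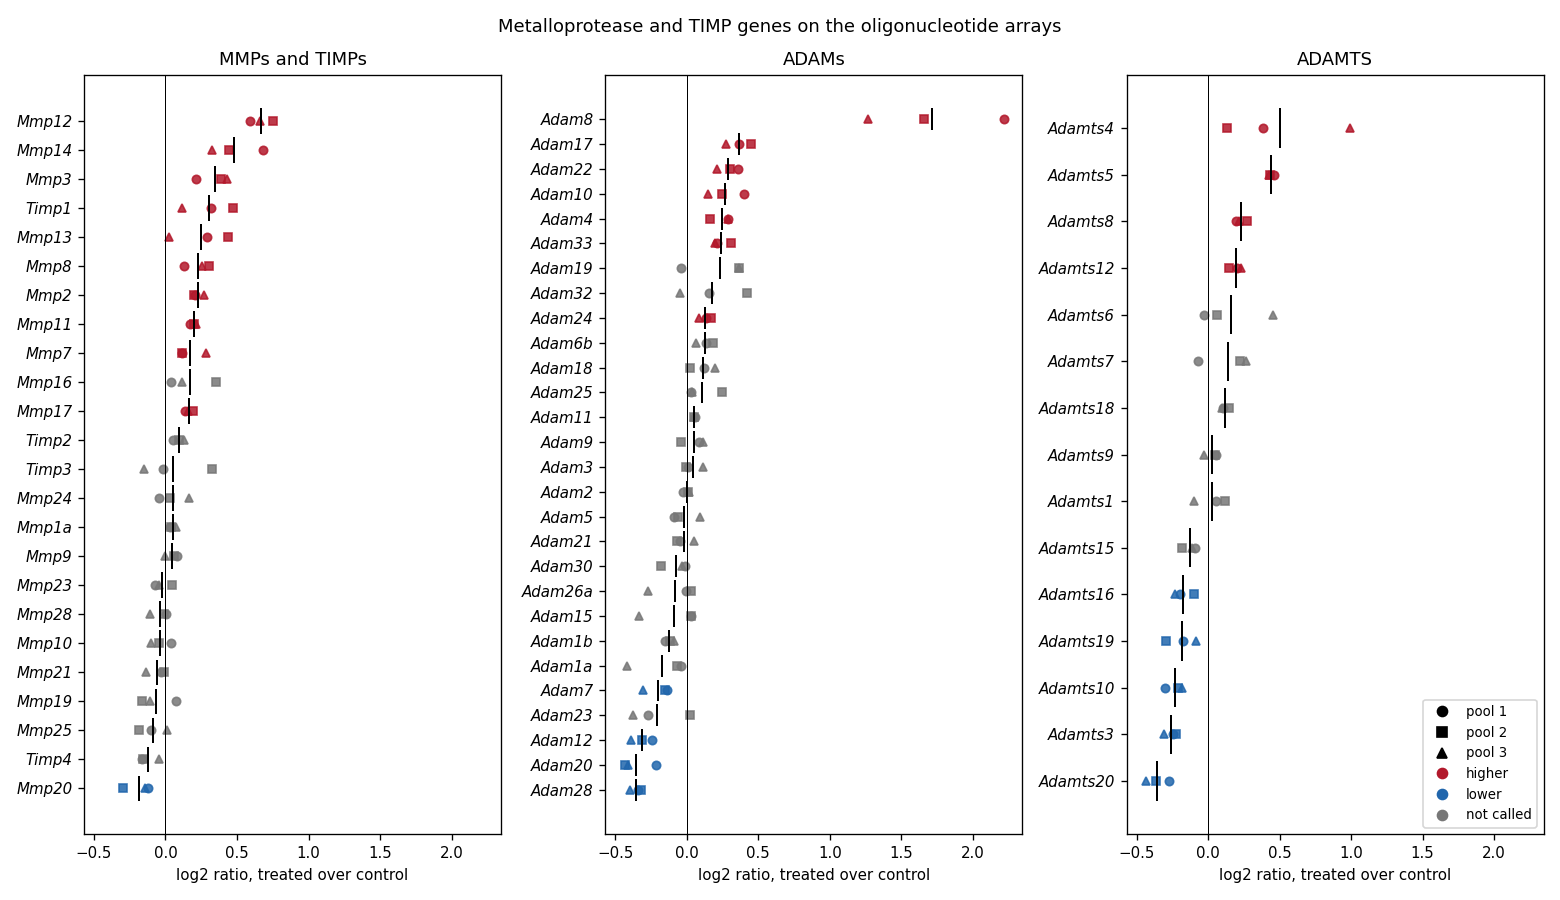
Log2 ratio of treated over control (horizontal axis) of the 67 members on the oligonucleotide arrays, with 1 symbol per pool, a black tick at the mean and colours for genes called higher, called lower or not called. Adam8 lies between 1.26 and 2.21, to the right of every other member in each pool.

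The calls depended on the spread that limma shares over genes and on the number of pools. With a one-sample test per gene and no shared spread, 0 of the 67 members were called, and 40 of all 16871 genes. When each pool was left out in turn, 15 of the 31 calls held in all 3 fits, those of Adam8, Adam12, Adam17, Adam20, Adam22, Adam28, Adam33, Adamts3, Adamts5, Adamts8, Adamts20, Mmp2, Mmp3, Mmp12 and Mmp14. Without pool 1, 13 members were higher and 5 lower. Against a minimum change of 0.32 in place of 0 (limma treat, chosen after seeing the data), the calls of Adam8 and Mmp12 held and the other 29 were lost.

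Small ratios were also called in genes that the liver is not known to use. Of 862 chemosensory receptor genes, which act in the nose, 95 were higher and 216 lower (36.1%), with a median absolute log2 ratio of 0.11. Among the members, 16 ADAM genes are known mainly from testis or epididymis. Of these, Adam4 (0.25 ± 0.07, SD, n = 3 pools) and Adam24 (0.13 ± 0.04) were higher, Adam20 (-0.35 ± 0.12) and Adam7 (-0.20 ± 0.09) were lower, and 12 were not called. The call of Adam24 was lost when any 1 pool was left out, and so was that of Adam7, while Adam4 was not called without pool 1. The role groups were formed with the values known and carry no test.

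**Figure D2:**
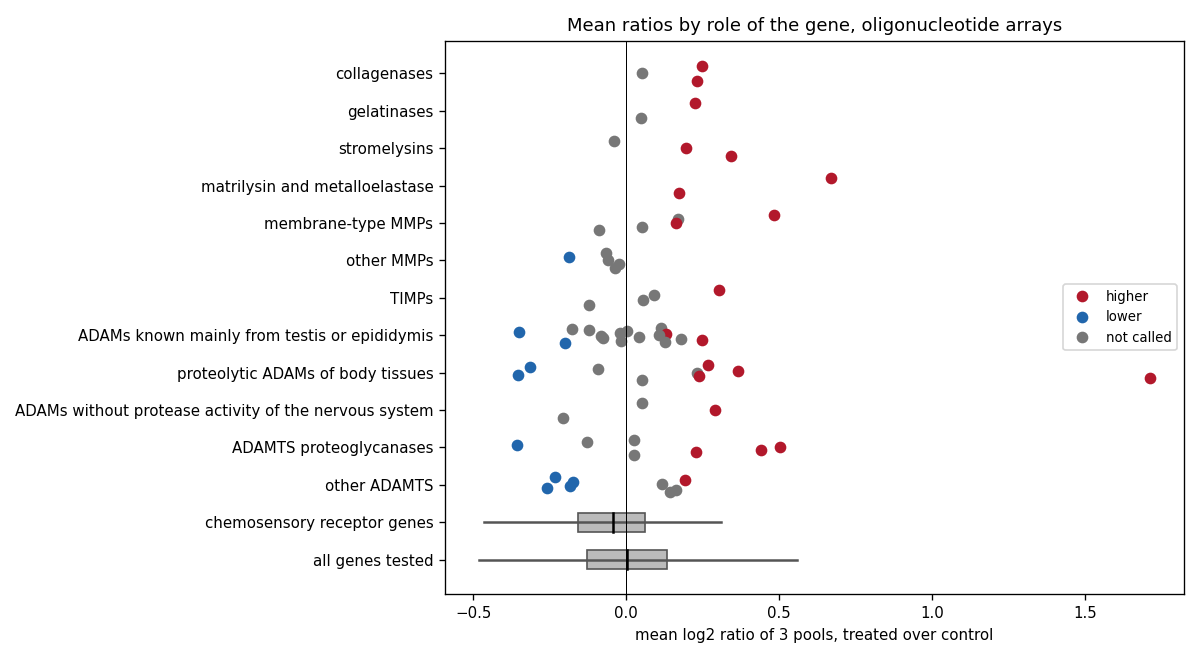
Mean log2 ratio of the 3 pools on the oligonucleotide arrays (horizontal axis) for each member, grouped by role and coloured by call. The 2 lowest rows show chemosensory receptor genes and all genes tested, with a box from the 25th to the 75th percentile, a line at the median and whiskers from the 2.5th to the 97.5th percentile. Chemosensory whiskers run from -0.47 to 0.31, a range that holds most of the called members.

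Adam8 (gene ID 11501) encodes a membrane protease of macrophages, neutrophils and osteoclasts. Its log2 ratio was 2.21 in pool 1, 1.66 in pool 2 and 1.26 in pool 3. The ratio of treated over control was thus above 0 in each pool, with a spread between pools of almost 1 log2 unit. The mean of 1.71 ± 0.48 (SD, n = 3) is a 3.28-fold increase (limma adjusted p = 0.0012). It placed Adam8 at rank 23 of 16871 genes, counted from the largest increase. On the cDNA array Adam8 had a value only in pool 3, at 0.57.

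Mmp12 (gene ID 17381) encodes macrophage metalloelastase, which cuts elastin. Its log2 ratio was 0.59, 0.75 and 0.66 in pools 1, 2 and 3, so the pools lay close together. The mean of 0.67 ± 0.08 is a 1.59-fold increase (limma adjusted p = 5.79e-04), at rank 271 of 16871. On the cDNA array Mmp12 was listed at 0 in pool 1, which is treated as no value, and had log2 ratios of 6.40 in pool 2 and 1.97 in pool 3. The value in pool 2 was the highest of all 8150 features with a value on that array, and that in pool 3 ranked 265 of 10061. Both are larger than the oligonucleotide ratios of the same pools, and with 2 values Mmp12 did not enter the test on that array.

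Mmp12 lies in a row of neighbouring Mmp genes on chromosome 9. In the order of the RefSeq gene table (GRCm38.p6, used for names and neighbours), this row runs Mmp13, Mmp12, Mmp1b, Mmp3, Mmp1a, Mmp10, Mmp8, Mmp27, Mmp20 and Mmp7, of which 9 are on an array. Mmp1b was not analysed here. RefSeq promoter windows were searched on both strands of the 250 bases before each start. The motifs were TGANTCA, called AP-1 letters here, the TATA box, and the PEA3 motif of ETS factors. AP-1 factors (the Fos and Jun proteins) are known to bind TGAGTCA and TGACTCA, so TGANTCA is a wider search. The TATA box was searched as TATAAA. The PEA3 motif was searched as AGGAAG, which can share an end base with either of the others. Windows were found for 39 members by symbol. AP-1 letters were in the windows of 10 of these 39 genes, and 7 of the 10 belong to this row. Counted by window, 22.7% of 44 member windows held them, beside 6.75% of 32851 windows of all genes, while TATAAA was in 20.5% of member windows and 12.4% of all. AGGAAG was in 38.6% of member windows and 29.5% of all, and in this row in windows of Mmp3, Mmp7, Mmp8, Mmp12 and Mmp13. The last 100 bases before the start are shown for the 7 genes of the row with AP-1 letters and for Mmp8, which had none, with AP-1 and TATA letters in capitals. All are on the plus strand of GRCm38.p6, 5′ to 3′, and of several starts of a gene the one with AP-1 letters is shown.
Mmp13, chr9:7272414-7272513: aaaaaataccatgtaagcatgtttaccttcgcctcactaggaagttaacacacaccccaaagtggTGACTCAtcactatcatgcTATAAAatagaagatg
Mmp12, chr9:7347274-7347373: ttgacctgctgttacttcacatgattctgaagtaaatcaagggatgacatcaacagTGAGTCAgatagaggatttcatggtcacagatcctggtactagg
Mmp3, chr9:7445722-7445821: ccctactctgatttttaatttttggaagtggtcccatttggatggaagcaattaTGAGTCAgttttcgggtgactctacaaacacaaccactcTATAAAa
Mmp1a, chr9:7464041-7464140: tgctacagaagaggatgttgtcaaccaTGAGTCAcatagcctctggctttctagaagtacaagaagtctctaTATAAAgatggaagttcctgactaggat
Mmp10, chr9:7502242-7502341: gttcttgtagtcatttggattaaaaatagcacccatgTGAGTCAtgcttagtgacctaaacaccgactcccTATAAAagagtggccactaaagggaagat
Mmp8, chr9:7558329-7558428: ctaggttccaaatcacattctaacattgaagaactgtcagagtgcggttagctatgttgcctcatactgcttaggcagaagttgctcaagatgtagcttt
Mmp20, chr9:7628131-7628230: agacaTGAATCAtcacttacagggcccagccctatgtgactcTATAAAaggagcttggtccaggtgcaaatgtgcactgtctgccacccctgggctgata
Mmp7, chr9:7691990-7692089: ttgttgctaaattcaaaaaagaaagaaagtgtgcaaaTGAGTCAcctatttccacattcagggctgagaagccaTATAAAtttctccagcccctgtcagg

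Of the 8 genes of this row on the oligonucleotide array, 5 were higher, 1 was lower and 2 were not called. Of all genes on that array, 22.0% were higher and 21.4% lower. The 7 genes with AP-1 letters included 4 higher genes (Mmp3, Mmp7, Mmp12 and Mmp13), the lower Mmp20 and the uncalled Mmp1a and Mmp10. The match in Mmp20 was TGAATCA, while the matches in the other genes were TGAGTCA or TGACTCA. Mmp8, shown above without AP-1 letters, was higher. These letters were thus present in promoters of called and uncalled genes alike, and a match is a description of the sequence.

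**Figure D3:**
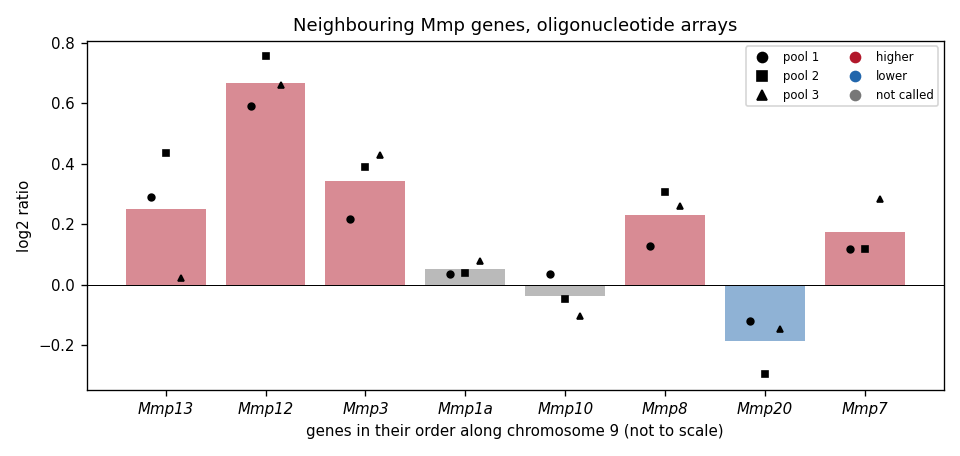
Log2 ratios of treated over control on the oligonucleotide arrays for 8 neighbouring Mmp genes, placed in their order along chromosome 9 and not to scale. Bars are means of 3 pools coloured by call, and symbols are single pools. Mmp12 has the tallest bar at 0.67, next to Mmp13 at 0.25 and Mmp3 at 0.34.

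Among the collagenases, which cut fibrillar collagen, Mmp13 had log2 ratios of 0.29, 0.43 and 0.02 in pools 1, 2 and 3, for a mean of 0.25 ± 0.21 (limma adjusted p = 0.0487). Pool 3 was near 0, and Mmp13 was not called without pool 1 (adjusted p = 0.168) or without pool 2 (adjusted p = 0.195). Mmp8, the collagenase of neutrophils, was higher by 0.23 ± 0.09 (adjusted p = 0.0139) but was not called without pool 2, and Mmp1a was at 0.05 ± 0.02 and was not called. Of the gelatinases, which cut basement membrane collagen and denatured collagen, Mmp2 was at 0.21, 0.20 and 0.27, for a mean of 0.22 ± 0.04 (adjusted p = 0.0079). Mmp9, a gelatinase of neutrophils and macrophages, was at 0.08 and 0.06 in pools 1 and 2 and near 0 in pool 3 (mean 0.05 ± 0.04, adjusted p = 0.396). The 2 gelatinase genes thus had different calls, and the difference between them was not tested.

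The stromelysin genes were Mmp3, Mmp10 and Mmp11. The products of Mmp3 and Mmp10 cut proteoglycans and laminin and can activate other MMP precursors. Mmp3 was at 0.22, 0.39 and 0.43 in pools 1, 2 and 3, a mean of 0.34 ± 0.11 (adjusted p = 0.0050). Mmp11 was higher by 0.20 ± 0.02 (adjusted p = 0.0112) but was not called without pool 1. On the cDNA array Mmp11 was at -0.66 in pool 1 and -0.20 in pool 3, where the oligonucleotide array gave 0.17 and 0.21. Mmp10 was at -0.04 ± 0.07 on the oligonucleotide array and was not called. The matrilysin Mmp7, a small enzyme of epithelia, was higher by 0.17 ± 0.09 (adjusted p = 0.0362) and was not called when any 1 pool was left out.

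Of the 5 membrane-type MMPs, Mmp14 (gene ID 17387), which cuts collagen at the cell surface and activates the precursor of MMP2, stood highest. Its log2 ratio was 0.68, 0.44 and 0.32 in pools 1, 2 and 3, all above 0, for a mean of 0.48 ± 0.18 (1.40-fold, limma adjusted p = 0.0043). The cDNA array gave 2.07, 0.68 and 0.32 for the same pools, with pool 1 the highest on both array types. Mmp17 was higher by 0.16 ± 0.03 (adjusted p = 0.0213) but was not called when any 1 pool was left out. Mmp16 (0.17 ± 0.16), Mmp24 (0.05 ± 0.10) and Mmp25 (-0.09 ± 0.10) were not called.

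Of the other MMPs, Mmp20, the enzyme of tooth enamel, was lower at -0.19 ± 0.09 (adjusted p = 0.0276) and was not called without pool 1 or without pool 2. Mmp19 (-0.07 ± 0.12), Mmp21 (-0.06 ± 0.07), Mmp23 (-0.02 ± 0.06) and Mmp28 (-0.04 ± 0.06) were not called. Of all 20 measured Mmp genes, 9 were higher and 1 was lower, with a median log2 ratio of 0.11, beside 22.0% higher and 21.4% lower of all genes with a median of 0.00. Of those called, Mmp7, Mmp8, Mmp11, Mmp13, Mmp17 and Mmp20 were each lost in at least 1 fit without a pool.

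Of the 4 inhibitor genes, Timp1 was called and the others were not. Timp1 (gene ID 21857), an inducible inhibitor, was at 0.32, 0.47 and 0.12 in pools 1, 2 and 3, above 0 in each. Its mean was 0.30 ± 0.18, a 1.23-fold increase (limma adjusted p = 0.0180), and it was not called without pool 1 (adjusted p = 0.0773) or without pool 2 (adjusted p = 0.0722). Timp2, which is known to take part in the activation of MMP2 by MMP14, was at 0.05, 0.10 and 0.13 (mean 0.09 ± 0.04, adjusted p = 0.121). Timp3, a matrix-bound inhibitor that also acts on ADAM17, was at -0.01, 0.32 and -0.15 (mean 0.05 ± 0.24, adjusted p = 0.660), so its pools did not share a sign. Timp4 was at -0.16, -0.16 and -0.05 (mean -0.12 ± 0.07, adjusted p = 0.0738). On the cDNA array Timp1 had a value in pool 3 alone, at -0.67, where the oligonucleotide array gave 0.12.

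Of the 9 proteolytic ADAM genes of body tissues, 4 were higher and 2 lower, beside 22.0% higher and 21.4% lower of all genes. Adam17, which encodes the enzyme that releases TNF from the cell surface, had log2 ratios of 0.37, 0.45 and 0.28 in pools 1, 2 and 3, all above 0, for a mean of 0.36 ± 0.09 (1.29-fold, limma adjusted p = 0.0030). Adam10, which cuts Notch receptors and many adhesion molecules, was higher by 0.27 ± 0.13 (adjusted p = 0.0143), but was not called without pool 1 (adjusted p = 0.078) or without pool 2 (adjusted p = 0.0562). Its 2 features differed in size, with means of 0.42 and 0.11. Adam33 was higher by 0.24 ± 0.06 (adjusted p = 0.0085).

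The lower genes of that group were Adam28, known from lymphocytes, and Adam12, known from activated stellate cells. Adam28 was at -0.34, -0.32 and -0.40 in the 3 pools (mean -0.35 ± 0.04, adjusted p = 0.0021). Adam12 was at -0.25, -0.31 and -0.39 (mean -0.32 ± 0.07, adjusted p = 0.0040). In both genes all pools were below 0 and close together. Adam19 (0.23 ± 0.23), Adam9 (0.05 ± 0.08) and Adam15 (-0.09 ± 0.21) were not called. Without pool 1, Adam19 was called higher at 0.37 (adjusted p = 0.0144).

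Adam11, Adam22 and Adam23 encode ADAMs without protease activity that act in the nervous system. Adam22 was higher by 0.29 ± 0.08 (limma adjusted p = 0.0053), Adam11 was at 0.05 ± 0.01 and Adam23 at -0.21 ± 0.21, neither called. The 2 features of Adam11 had opposite signs, with means of -0.06 and 0.16. Without pool 2, Adam23 was called lower at -0.33 (adjusted p = 0.0197). The ADAM genes of testis or epididymis that were not called ran from -0.18 for Adam1a to 0.18 for Adam32, with Adam1b, Adam2, Adam3, Adam5, Adam6b, Adam18, Adam21, Adam25, Adam26a and Adam30 between them. Adam32 was called higher without pool 3 (0.29, adjusted p = 0.0355), and Adam6b with no centring (0.13, adjusted p = 0.04999).

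Of the 7 ADAMTS genes whose products cut proteoglycans, 3 were higher and 1 lower, beside 22.0% higher and 21.4% lower of all genes. Adamts5, an aggrecanase, was at 0.46, 0.43 and 0.43 in pools 1, 2 and 3, which were nearly equal, for a mean of 0.44 ± 0.02 (1.36-fold, limma adjusted p = 0.0010). Adamts4, the other main aggrecanase, was at 0.38, 0.13 and 1.0, with pool 3 far above the others. Its mean was 0.50 ± 0.45 (adjusted p = 0.0422), and its mean without pool 3 was 0.26. It was not called without pool 1 (adjusted p = 0.0847) or with limma's robust prior (adjusted p = 0.058). On the cDNA array Adamts4 had a value only in pool 3, at -0.36, so the 2 array types gave opposite signs in that pool. Adamts8 was higher by 0.23 ± 0.04 (adjusted p = 0.0078), and Adamts20 was lower at -0.27, -0.37 and -0.44 (mean -0.36 ± 0.08, adjusted p = 0.0031). Adamts1 (0.03 ± 0.11), Adamts9 (0.03 ± 0.04) and Adamts15 (-0.13 ± 0.05) were not called.

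Of the 8 other ADAMTS genes, 1 was higher and 4 lower, beside the same shares of all genes (22.0% and 21.4%). Adamts3, which trims procollagen, was lower at -0.26 ± 0.04 (adjusted p = 0.0053), as was Adamts10 at -0.23 ± 0.06 (adjusted p = 0.0090). Adamts16 (-0.17 ± 0.07) and Adamts19 (-0.18 ± 0.11) were lower, and Adamts12 was higher by 0.19 ± 0.04 (adjusted p = 0.0141). Without pool 1, none of Adamts10, Adamts12, Adamts16 and Adamts19 was called. Adamts6 (0.16 ± 0.26), Adamts7 (0.14 ± 0.18) and Adamts18 (0.12 ± 0.03) were not called. Adamts7 was called higher without pool 1 (0.25, adjusted p = 0.0401), and Adamts18 with no centring (0.12, adjusted p = 0.0499).

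The cDNA arrays, which read the same RNA, gave wider values and no calls. Of the 12 members with 3 values, limma called 0, and so did the one-sample test without a shared prior. With the spread of these 3 arrays, a count of 0 does not show that the genes did not change. Among all 5011 genes of this array limma also called 0 (a share of 0%), with 2 of the 12 members (Adam17 and Adam23) and 1518 of all genes (30.3%) at an unadjusted p under 0.05. The median absolute log2 ratio was 0.64 for the 12 members and 0.40 for all genes on this array. In 6 of the 12 members the 3 pools shared a sign. The other 13 genes had fewer values. Adam11, Adamts12, Mmp11, Mmp12 and Mmp17 had values in 2 pools, Adam6b, Adam8, Adam12, Adam15, Adamts4, Mmp9 and Timp1 in 1 pool, and Adam2 in none. Mmp17 was at 0.14 and 0.39 and Adamts12 at 0.87 and -0.57 in pools 1 and 2. Adam11 was at 1.09 and 1.05 in pools 1 and 3. In pool 3, Mmp9 was at -0.30, Adam12 at -0.74 and Adam15 at 0.24, and in pool 2 Adam6b was at -0.71.

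Among the 12 members with 3 values on the cDNA array, Mmp2 had the highest mean, at 1.66, 3.62 and -0.15 in pools 1, 2 and 3 (mean 1.71 ± 1.89, adjusted p = 0.228). Pool 3 thus lay below 0 while pool 2 was far above it, where the oligonucleotide array gave between 0.20 and 0.27. Mmp27, the only member on this array type alone, was at 3.40, 1.30 and 0.09 (mean 1.60 ± 1.67, adjusted p = 0.215). Mmp14 followed at 1.02 ± 0.92 (adjusted p = 0.189), and Adamts1 at 0.09, 0.24 and 1.78 (mean 0.70 ± 0.94, adjusted p = 0.300). At the other end, Mmp16 was at 0.30, -3.01 and -0.20 (mean -0.97 ± 1.78, adjusted p = 0.420), so pool 2 set its mean. Adam9 was nearly equal in all pools, at 0.11, 0.12 and 0.11 (adjusted p = 0.527). Adam23 was below 0 in all pools (-0.58 ± 0.20, adjusted p = 0.118), while Adam22 (-0.81 ± 1.40, with feature means of -1.54 and -0.08), Mmp7 (-0.18 ± 0.96) and Mmp23 (-0.19 ± 0.71) had pools on both sides of 0.

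**Figure D4:**
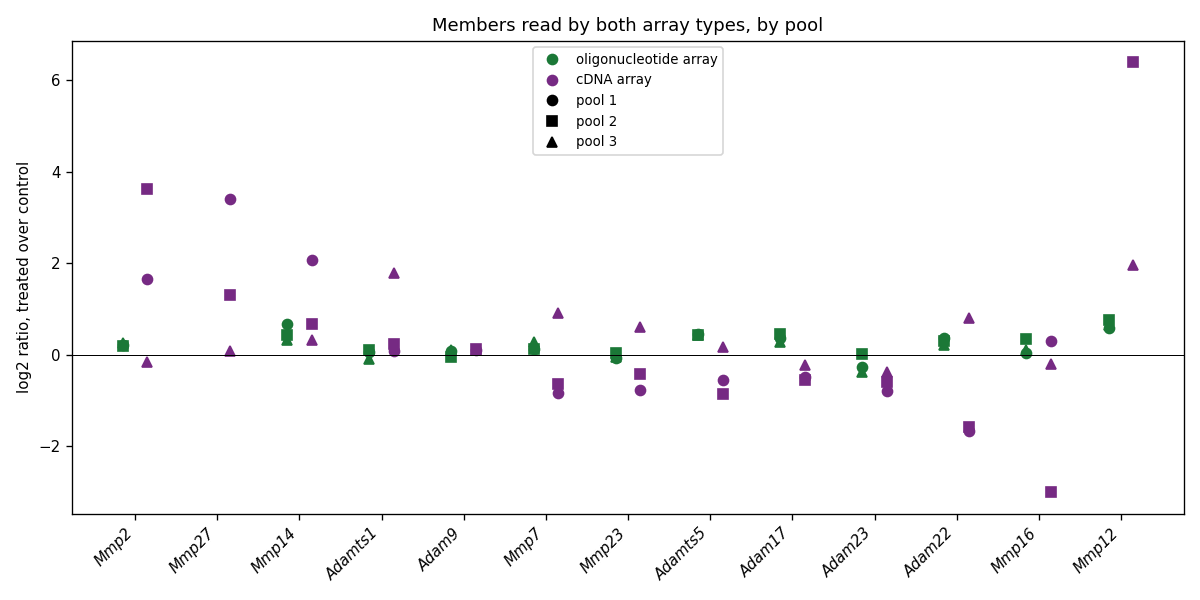
Log2 ratios of treated over control (vertical axis) on the oligonucleotide arrays (green) and the cDNA arrays (purple) for the 12 members with 3 values on the cDNA array and for Mmp12, with 1 symbol per pool. The cDNA values spread more widely, from -3.01 for Mmp16 to 6.40 for Mmp12, both in pool 2.

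For 11 members measured on all 6 arrays, the 2 array types were set against each other. The means had the same sign in 6 genes and opposite signs in 5. Adam17 differed between them (oligonucleotide minus cDNA 0.78 ± 0.13, SE, limma adjusted p = 0.0273), beside 11.4% of 4702 genes called in that comparison (6.25% higher on the oligonucleotide array, 5.17% lower). Its cDNA values were -0.49, -0.54 and -0.23 in pools 1, 2 and 3 (mean -0.42 ± 0.17, adjusted p = 0.154), against 0.36 on the oligonucleotide array, so the array types gave opposite signs in every pool. With the pool as a block Adam17 was not called (adjusted p = 0.135), nor without pool 1 (adjusted p = 0.259) or without pool 2 (adjusted p = 0.224). Adamts5 had a difference of 0.85 ± 0.27 (adjusted p = 0.0929), with -0.41 ± 0.52 on the cDNA array against 0.44. Its 2 cDNA features had means of -0.56 and -0.26. Without pool 3, Adamts5 (adjusted p = 0.0289), Adam22 (adjusted p = 0.0210) and Mmp7 (adjusted p = 0.0305) were called as well.

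With the 2 arrays of each pool averaged, limma called 0 of these 11 members, beside 240 of 4702 genes (5.10%, with 2.47% higher and 2.64% lower). At an unadjusted limma p under 0.05 there were 2 of the 11 members and 1707 of 4702 genes (36.3%). Mmp14 was at 1.37, 0.56 and 0.32 in the averaged pools (mean 0.75 ± 0.55, adjusted p = 0.114), and Adam23 at -0.40 ± 0.12 (adjusted p = 0.0724). With the 6 arrays kept apart and the pool as a block, Mmp14 (adjusted p = 0.0441) and Adam23 (adjusted p = 0.0248) were called, and so were 1017 of all genes. Without pool 3, Adam22 was lower over both types (-0.64, adjusted p = 0.0459). Mmp2 averaged 0.97 ± 0.93 (adjusted p = 0.162).

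Genes that activate metalloproteases or serve as their substrates were taken from lists on the oligonucleotide arrays, beside 22.0% of all genes called higher and 21.4% lower. Of 11 measured genes of the plasminogen system, whose product plasmin activates MMP precursors, 5 were higher and 2 lower, with a median log2 ratio of 0.07. Anxa2, a plasminogen receptor subunit, was higher by 1.49 ± 0.28 (limma adjusted p = 5.40e-04) and Plgrkt, another plasminogen receptor, by 0.59 ± 0.16, while Plau, urokinase, was at -0.43 ± 0.05 and Klkb1, plasma kallikrein, at -0.41 ± 0.11, both lower. Of 21 activators and other regulators, 8 were higher and 1 lower (median 0.07). Cd9, a tetraspanin that binds ADAM proteins, was higher by 1.18 ± 0.18, Pcolce, an enhancer of procollagen processing, by 0.59 ± 0.01, Thbs2 by 0.43 ± 0.14 and the cysteine protease inhibitor gene Cst3 by 0.31 ± 0.02. The lower gene was Furin, a convertase that activates several ADAM and MMP precursors (-0.36 ± 0.11, adjusted p = 0.0041), named after its values were seen. On the cDNA array the means of Plau (1.10 ± 0.82), Thbs2 (-0.68 ± 0.12) and Pcolce (-0.11 ± 0.59) had the opposite sign, and none was called there. All 3 pools of Plau were above 0 and all 3 pools of Thbs2 below 0 on that array.

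Matrix substrates were mostly called in 1 direction. Of 33 measured, 16 were higher and 2 lower, with a median of 0.15. Col3a1, a fibrillar collagen, was higher by 0.85 ± 0.05 (limma adjusted p = 2.66e-04), Mgp, matrix Gla protein, by 1.15 ± 0.17, Sparc, a collagen-binding protein, by 0.72 ± 0.17 and Col14a1 by 0.45 ± 0.07. The lower genes were Bcan (-0.17 ± 0.09) and Fn1, fibronectin (-0.16 ± 0.08), named after their values were seen. Of 35 genes of surface proteins that ADAMs shed, 13 were higher and 8 lower (median 0.06). Trem2, a receptor of macrophages, was higher by 4.31 ± 0.19 and the adhesion gene Vcam1 by 2.06 ± 0.15, while Cd163, a haemoglobin scavenger receptor (-1.77 ± 0.13), and Kl (-0.71 ± 0.15) were lower.

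Of 23 other extracellular and membrane metalloproteases and relatives, 3 were higher and 8 lower, with a median of -0.07. Papln (-0.55 ± 0.08, limma adjusted p = 8.97e-04), Adamdec1, an ADAM-like gene of macrophages and dendritic cells (-0.61 ± 0.26, adjusted p = 0.0047), and Phex (-0.31 ± 0.09) were lower, while Anpep, aminopeptidase N, was higher by 0.37 ± 0.13. Of 23 genes of cytokines and transcription factors known to induce metalloprotease genes, 9 were higher and 2 lower (median 0.14). The AP-1 genes Jun (0.88 ± 0.19) and Junb (0.84 ± 0.15) were higher, as was the growth factor gene Tgfb1 (0.34 ± 0.03), and Il1b was lower (-1.71 ± 0.24). Jund was higher by 0.40 ± 0.12, while Fos (-0.21 ± 0.20), Fosb (-0.01 ± 0.10), Fosl1 (-0.03 ± 0.04) and Fosl2 (0.05 ± 0.11) were not called. On the cDNA array Fos was at 1.03 ± 0.16 and Junb at 0.18 ± 0.22, and neither was called.

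Markers of other cells moved in the same pools on the oligonucleotide arrays, beside 22.0% of all genes called higher and 21.4% lower. Among 15 markers of macrophages and Kupffer cells, 10 rose and 3 fell, with pool means between 1.04 and 1.24, and Cd68 was higher by 1.61 ± 0.09. The highest were Gpnmb (4.63 ± 0.07) and Trem2 (4.31 ± 0.19), and those that fell were Cd163 (-1.77 ± 0.13), Marco (-1.24 ± 0.76) and Vsig4 (-0.17 ± 0.05). Of 10 neutrophil markers, 8 were higher and 0 lower, with means of 0.88, 0.60 and 0.50 in pools 1, 2 and 3. Of 14 stellate cell and fibroblast markers, 11 were higher and 0 lower, with pool means of 0.51, 0.49 and 0.39. On the cDNA array 10 of these markers had pool means of 0.33, 0.68 and 0.45, and none was called. Acta2, at 0.55 ± 0.17 on the oligonucleotide array, was at -0.20 ± 0.04 there, and Tagln, Des and Dcn also had means below 0. Among 10 markers of lymphocytes and NK cells, 5 rose and 0 fell (pool means 0.12 to 0.25). On the cDNA array 7 markers of that list had a median log2 ratio of -0.42, with pool means of -0.14, -0.96 and 0.14, and none was called. Of 5 cholangiocyte markers, 2 were higher and 0 lower (0.07 to 0.17). Endothelial markers had 0 higher and 4 lower of 10 (pool means -0.10 to -0.06). Hepatocyte markers, which define the labelled tissue, had 0 higher and 7 lower of 12 (pool means -0.46 to -0.35), and as ratios they do not show the level of the tissue's own genes. On the cDNA array 9 hepatocyte markers had pool means of -0.10, -0.06 and -0.03, and none was called. The part of these cells in the ratios of the metalloprotease and TIMP genes was not tested.

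**Figure D5:**
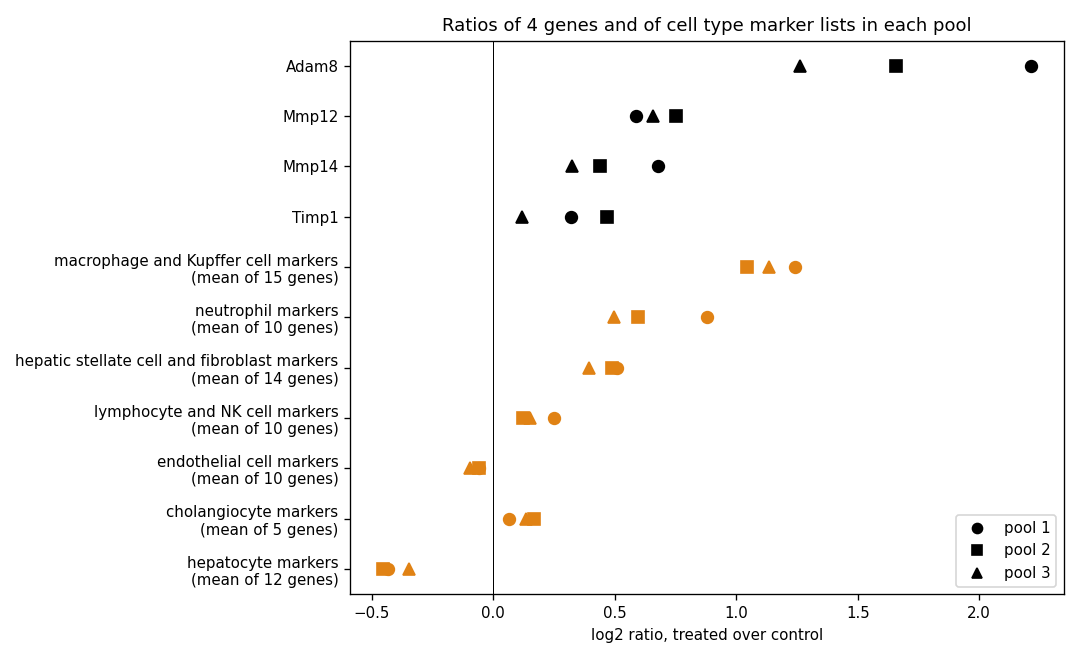
Log2 ratios of treated over control on the oligonucleotide arrays (horizontal axis) for Adam8, Mmp12, Mmp14 and Timp1 (black) and for the mean of each cell type marker list (orange), with 1 symbol per pool. Macrophage markers lie between 1.04 and 1.24 and hepatocyte markers between -0.46 and -0.35.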

How the data were processed

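Two-colour Agilent arrays of 2 types measured liver RNA of 3 treated pools against 1 control pool. Per the labels' protocols, 10 ug of RNA was labelled directly for the cDNA array and 0.5 ug after linear amplification for the oligonucleotide array. The authors deposited a log ratio for every feature of each array, read here as log2. No source used here gives the background correction, normalization, log base or centring, and the direction was taken from titles and dyes. The largest absolute value, 6.34, is above 4.82, the log10 of the 16-bit maximum, so log10 was set aside.

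Values of 0 (between 1257 and 1277 features per oligonucleotide array and between 3421 and 5332 per cDNA array) were treated as missing. Arrays were centred on the median of their non-zero features, which was between -0.09 and 0.01. Features were named from the platform annotation when it gave 1 gene (18658 of 22575 oligonucleotide and 7410 of 13482 cDNA features), updated by gene ID through RefSeq. Features of a gene were averaged. Each array type was fitted with limma 3.58.1 in R 4.3.3 (lmFit, eBayes) against 0 over all genes with 3 values. Python 3.11.15, pandas 2.3.3 and matplotlib 3.10.9 made tables and plots. The number of arrays limits the precision. Pools are biological replicates per the series' design text. The limma p-values rest on the spread between these pools together with the spread that limma shares over genes.

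The fits were tested on simulated data. The shifts put in were 0.5 and 1 log2 units. The oligonucleotide fit found them, but most called members had smaller ratios, to which this outcome does not apply. The cDNA fit did not find them, so its lack of calls does not show that genes did not change. Pool numbers were taken to pair the arrays, since the series' design text says that each RNA sample was divided between both types. Across genes, the deviations from the array type's mean of the 2 arrays that share a pool correlated at 0.06, 0.07 and 0.07.

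All Mmp and Timp genes are named with values. Adam and Adamts genes are named with values when called at a log2 ratio of at least 0.32 from 0 or when array types differed, and the values of other Adam and Adamts genes were added after they were seen, to describe whole role groups. Of each list of related genes the 4 called genes with the smallest p are named. Other listed genes and markers were named after their values were seen. Members, lists and roles were chosen with earlier results of these data known. Alternatives changed the centring, scaling, zeros, variance model, feature averaging, missing values, pool block and the pools used. A cDNA feature annotated to both Mmp24 and another gene was left out.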

Additional observations from a re-analysis of the deposited data

Results flagged for a closer look

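Adam17 was singled out because the same comparison of treated with control pools gave different values on the 2 array types. The oligonucleotide array was higher than the cDNA array by 0.78 on the log2 scale (means 0.36 and -0.42, limma adjusted p = 0.0273), and the oligonucleotide value was above the cDNA value in each of the 3 pools. With the pool as a block the adjusted p was 0.135.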

How the results depend on the processing

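On the oligonucleotide array, the 21 higher and 10 lower members became 0 and 0 with no shared prior, and 2 and 0 with limma treat against 0.32, an alternative chosen after seeing the data. Of all 16871 genes, 40 were called with no shared prior, 583 with treat and 4025 to 6244 without 1 pool, in place of 7318. Leaving out 1 pool gave 13 to 19 higher and 5 to 8 lower members. No centring, zeros in the median, scaling to 1 spread, zeros kept and values on at least 2 arrays kept all 31 calls, robust eBayes kept 30 (without Adamts4), and testing features one by one kept 29 (without Adam10, where a call needed both features, and Adam24). On the cDNA array 0 members were called under every alternative run. Averaged over both array types, the pool as a replicate block on 6 arrays gave 1 higher and 1 lower member in place of 0 and 0, and leaving out 1 pool gave 0 higher and 0 to 1 lower. For the difference between array types, 1 member was called, 0 with the pool as a replicate block, and 0 to 4 when 1 pool was left out (4 without pool 3). Over all 4702 genes, the averaged fit called 240, or 546 with arrays scaled, 1017 with the block and 0 with no shared prior, without pool 1 or without pool 2. With zeros kept it called 0 of 6274 genes. It called 531 without pool 3. The difference called 537, or 831 with arrays scaled, 1062 without pool 3, and 0 with the block, without pool 1 or without pool 2. The block changed no other member's call. No member called on the oligonucleotide array changed direction under an alternative on that array. Adam22, higher there (0.29), was lower over both array types without pool 3 (-0.64). The cause of each change was not tested. Signal over background is not known for any feature, and 3 pools against 1 control pool limit what can be detected.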
